A study of Mus musculus with 14 samples.

Results

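The transcripts described here come from 10 genes, Slc2a1, Pfkp, Pgk1, Ldha, Pdk1, Vegfa, Ndrg1, Ddit4, Bnip3 and Ankrd37. They were listed by name, with earlier results of these data known. Every probe set that the array's annotation assigns to 1 of them alone was taken. This gave 24 of the 45037 probe sets that are not controls. The cells were SCp2, an established line of mouse mammary epithelial cells, plated in 35 mm dishes in medium with 2% serum and kept for 3 days. Dishes were treated with MMP3 (stromelysin-1), an enzyme that digests matrix and surface proteins, or were controls, for which the labels give no vehicle. Experiment A held 6 dishes, with both agents at 50K, 100K and 250K plated cells per dish. Experiment B held 8, with 25K added. K is written as in the labels, where it marks kilo. Each dish gave RNA for 1 array, so a combination of agent and density was measured on 2 arrays, and on 1 at 25K. All dishes are of 1 cell line, and how the dishes of an experiment were related is not labelled, so p-values can speak only of the spread among these dishes.

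When oxygen is short, the HIF transcription factors are no longer marked for destruction, and they switch on genes that bring in glucose, break it down to lactate, keep pyruvate out of mitochondria, call in blood vessels and save energy. All 10 genes are textbook members of that response in many cell types, and several of them also answer to other stresses. Dense cultures use more oxygen than sparse ones. Oxygen was not measured here.

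HIF binds DNA at a short core, ACGTG. The RefSeq table of start sites (build GRCm38.p6) was searched for it, on both strands, in the 250 bases before each start. By symbol 9 of the 10 genes matched, and Ndrg1 did not. The core was found for 7 of these 9 genes (Slc2a1, Pgk1, Ldha, Vegfa, Ddit4, Bnip3 and Ankrd37) and not for Pfkp or Pdk1. For Vegfa the match was only before a start farther along the gene (chr17:46025164-46025413). The window before its first start (chr17:46032378-46032627) held none. Over all 27025 genes in the table the share was 18.5%. The longer run CACGTG, which holds the core on both strands and is also an E-box, was found for Ldha and Bnip3, against 6.86% of all genes. A match is a description of the letters and no proof of a binding site. The transcript of Ddit4 fell with MMP3 in experiment A, and that of Bnip3 was higher in each MMP3 dish of experiment B than in its control. Pgk1 and Slc2a1 differed little with MMP3 in experiment A. The 4 windows below are those of these genes, printed along the gene's strand with the core in capitals.
Ddit4, chr10:59951771-59952020, minus strand: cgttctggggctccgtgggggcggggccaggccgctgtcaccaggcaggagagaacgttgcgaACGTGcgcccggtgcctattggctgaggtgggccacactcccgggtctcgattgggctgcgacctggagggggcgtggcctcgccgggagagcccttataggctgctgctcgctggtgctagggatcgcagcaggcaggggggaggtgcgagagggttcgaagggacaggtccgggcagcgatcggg
Bnip3, chr7:138909507-138909756, minus strand: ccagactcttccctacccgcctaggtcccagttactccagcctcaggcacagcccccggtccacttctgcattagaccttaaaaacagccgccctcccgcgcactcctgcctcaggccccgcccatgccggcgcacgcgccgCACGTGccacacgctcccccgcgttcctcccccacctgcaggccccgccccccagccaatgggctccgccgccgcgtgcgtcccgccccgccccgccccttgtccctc
Pgk1, chrX:106186850-106187099, plus strand: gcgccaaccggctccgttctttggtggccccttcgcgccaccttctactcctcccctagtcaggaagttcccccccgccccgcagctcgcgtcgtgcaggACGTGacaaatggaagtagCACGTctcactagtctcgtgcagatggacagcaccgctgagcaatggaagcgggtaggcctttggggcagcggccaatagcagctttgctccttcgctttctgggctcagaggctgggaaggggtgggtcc
Slc2a1, chr4:119108495-119108744, plus strand: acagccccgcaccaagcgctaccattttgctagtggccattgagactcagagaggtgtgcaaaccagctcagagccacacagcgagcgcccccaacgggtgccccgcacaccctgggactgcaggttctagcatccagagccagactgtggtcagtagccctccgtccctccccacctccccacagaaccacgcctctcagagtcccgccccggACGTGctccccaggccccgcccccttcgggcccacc
Ldha was lower with MMP3 than in its control in all dish pairs of both experiments. So was Ankrd37, though its difference at 250K of A was only -0.01. For them the CACGTG sites of Ldha and the match of Ankrd37 farther from the start are shown, with up to 12 bases on either side.
Ldha, 144 bases before the start, chr7:46845648-46845676: gtgtcgcagcacACGTGgagccactcttg
Ldha, 47 bases before the start, chr7:46845745-46845773: ggcccagcctacACGTGggttcccgcacg
Ankrd37, 241 bases before the start, chr8:46000075-46000100: cccagcagtACGTGcctagctcggct
Genes with and without the core were among those that fell with MMP3 in experiment A, as the values that follow show.

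Values are relative log2 expression. The median of every probe set over the 14 arrays is 0, and only differences, not levels, can be read. A flat probe set may therefore be near background or unchanged, which cannot be told apart. In the same way the epithelial markers of SCp2 could be compared between dishes but not checked for their presence. Fewer cells that express a gene and less RNA per cell cannot be told apart in these bulk samples.

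Several arrays of experiment B stood against their labels. Ifit1, an interferon-induced gene, lay between -2.98 and -2.91 in the controls of A and between 2.83 and 4.21 in its MMP3 dishes. In B, control 50K read 3.71 and control 250K 4.26, whereas MMP3 25K read -2.83 and MMP3 100K -2.97. The last array also had the widest spread over all probe sets, an SD of 0.869 against 0.232 to 0.412 on the others. The 2 arrays of control 250K correlated across the 45037 probe sets at r = -0.580 and those of MMP3 100K at -0.348, while those of MMP3 250K and control 100K did so at 0.655 and 0.669. The experiments are therefore given separately, and arrays of B are called by their labels. Some RNA controls were also apart between the agents in A. Gapdh control probe sets at the 3′ end minus those at the 5′ end ran from -0.027 to 0.03 in the controls and from 0.04 to 0.166 with MMP3, and the 3′ probe set for 18S RNA from 0.454 to 0.828 and from 0.916 to 1.15. That 18S probe set also set the experiments apart, since in B it ran from -0.65 to 0.014, below every array of A. Actin 3′ minus 5′ overlapped in A, from -0.049 to 0.11 and from -0.145 to 0.093. On MMP3 100K of B it was 0.654, against -0.339 to 0.192 on the other 13 arrays. Their part in the results was not tested.

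**Figure D1:**
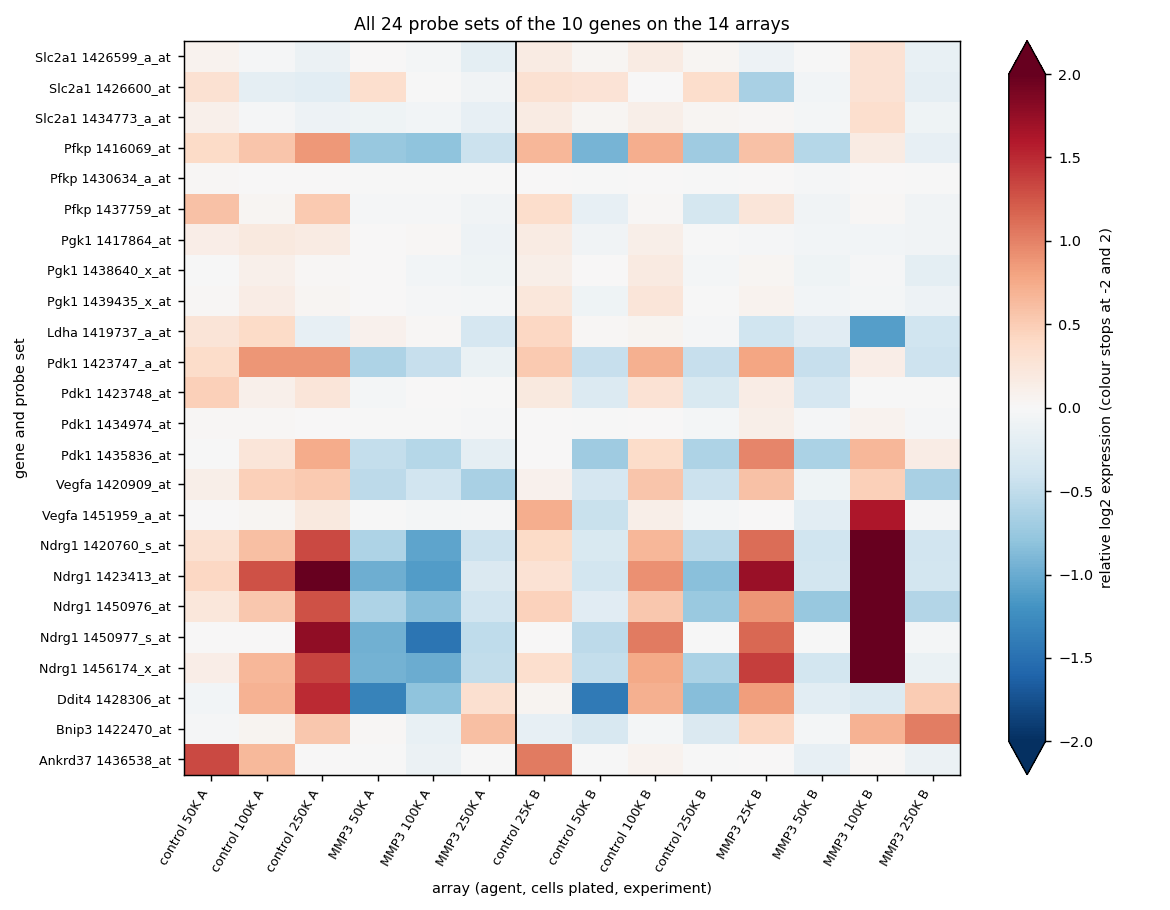
Relative log2 expression of all 24 probe sets (rows) on the 14 arrays (columns, experiment A left of the black line), in colours that stop at -2 and 2. The 5 Ndrg1 probe sets run alike, with 2.75 to 3.55 on the array labelled MMP3 100K of experiment B, and Slc2a1 and Pgk1 are pale throughout.

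MMP3 was the main comparison. In experiment A Ddit4, Pfkp and Ndrg1 fell with MMP3, each by at least 1 probe set past the test. Ddit4 encodes a stress-induced inhibitor of the growth kinase mTORC1, Pfkp the platelet form of phosphofructokinase, which commits glucose to glycolysis, and Ndrg1 a protein induced by hypoxia, metal chelation and differentiation. In all 3 of 24 probe sets passed with limma (adjusted p under 0.05), none of them higher, and 14 were at an unadjusted p under 0.05. Of all 45037 probe sets 1.71% were called lower, 2.41% higher and 4.11% in either direction, and 23.0% were at an unadjusted p under 0.05. The 3 calls were near the threshold. They ended with array medians set to 0 (0 members and 2.14% of all called), with quantile normalization (0 and 1.78%) and with a robust prior (0 and 2.11%). The differences themselves did not shrink by much. With array medians set to 0 they were -1.25 for Pfkp, -1.31 for Ddit4 and -1.51 for Ndrg1 (adjusted p from 0.0527 to 0.0557, limma), and with quantile normalization -1.52, -1.55 and -1.78 (0.0919 to 0.120). With flat probe sets left out, 10 members passed, all lower, beside 19.9% of those tested, and with no product of agent and density 5, beside 5.58%.

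Ddit4 stood at -0.06, 0.69 and 1.49 in the controls of A plated at 50K, 100K and 250K, and at -1.34, -0.81 and 0.32 in the MMP3 dishes at the same densities. Each MMP3 dish was below its control, yet the groups overlapped since the value was higher at each higher density under both agents. The difference was -1.32 (SE 0.08, adjusted p = 0.0385, limma), a 2.5-fold fall. With any 1 array of A left out the difference was between -1.43 and -1.26 and did not pass, nor did any other probe set.

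Pfkp (probe set 1416069_at) gave 0.38, 0.56 and 0.86 in the controls and -0.76, -0.80 and -0.43 with MMP3. The groups did not overlap, at 0.60 ± 0.24 (SD, n = 3) and -0.66 ± 0.20 (SD, n = 3), and the transcript fell by 1.26 on the log2 scale (SE 0.07, adjusted p = 0.0379, limma). The gene's other probe sets differed less. The difference was -0.42 (SE 0.21, adjusted p = 0.242, limma) for 1437759_at, and 1430634_a_at was flat, with an SD of 0.0123 over the 14 arrays. The mean of the 3 gave -0.57 (adjusted p = 0.0817, limma).

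Ndrg1 had 5 probe sets, which correlated with each other at 0.916 to 0.989 over the 14 arrays. For 1423413_at the controls of A were 0.42, 1.27 and 2.20 and the MMP3 dishes -0.98, -1.12 and -0.28. For 1456174_x_at they were 0.13, 0.66 and 1.35 against -0.95, -1.0 and -0.48. No MMP3 dish reached its lowest control with either. The second passed at -1.52 (SE 0.10, adjusted p = 0.0405, limma), while the larger difference of the first, -2.09 (SE 0.18), just missed (adjusted p = 0.0516, limma). Probe sets ending in _x_at, the 1 that passed included, can also detect related sequences. The other 3 probe sets differed by -1.44, -1.30 and -1.58, with adjusted p between 0.0679 and 0.190 (limma). In 1450977_s_at, for instance, the controls were 0.01, 0.01 and 1.78 and the MMP3 dishes -0.96, -1.47 and -0.51, so that only the 250K control stood high.

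Pdk1, Vegfa and Ankrd37 had differences of the same sign that did not pass by any single probe set. Pdk1 encodes a kinase that shuts pyruvate dehydrogenase and so keeps pyruvate from the mitochondria. With 1423747_a_at it was 0.37, 0.88 and 0.88 in the controls of A and -0.62, -0.45 and -0.13 with MMP3, without overlap, a difference of -1.11 (SE 0.12, adjusted p = 0.0632, limma). With 1435836_at the controls were -0.01, 0.24 and 0.74 and the MMP3 dishes -0.47, -0.57 and -0.19, a difference of -0.73 (SE 0.10, adjusted p = 0.0782, limma). Its other probe sets differed by -0.29 and -0.03, and the mean of all 4 passed at -0.54 (adjusted p = 0.0316, limma).

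Vegfa encodes the growth factor that draws in blood vessels. Probe set 1420909_at read 0.11, 0.48 and 0.52 in the controls of A and -0.52, -0.39 and -0.65 with MMP3, again apart, a difference of -0.89 (SE 0.11, adjusted p = 0.0726, limma). Probe set 1451959_a_at hardly varied in A (-0.11, SE 0.03). The 2 correlated at only 0.418 over the 14 arrays, so they do not give the same account of the gene.

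Ankrd37, an ankyrin repeat gene known as a direct HIF target, had a pattern of its own. It was 1.32 and 0.64 in the controls of A at 50K and 100K and 1.05 in the control of B at 25K. On the other 11 arrays it stayed between -0.16 and 0.07. Thus the high arrays were controls at lower densities, and control 50K of B was not among them. The MMP3 difference in A was -0.70 (SE 0.06, adjusted p = 0.0529, limma) and in B -0.34 (SE 0.20, adjusted p = 0.928, limma), with MMP3 below control in 3 of 3 and 4 of 4 pairs. Pairs without a high dish differed little, by -0.01 at 250K of A and by -0.16, -0.06 and -0.11 at 50K, 100K and 250K of B.

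The remaining genes carry sugar in, make ATP or lactate, or act at mitochondria, and none of them passed in A. Slc2a1, the glucose transporter GLUT1, differed by -0.06, 0.11 and -0.09 over its 3 probe sets. Its most variable one, 1426600_at, was 0.30, -0.17 and -0.21 in the controls and 0.34, -0.01 and -0.07 with MMP3, so both agents were highest at 50K. Pgk1, the first ATP-making enzyme of glycolysis, differed by -0.19, -0.08 and -0.09. Probe set 1417864_at was 0.13, 0.20 and 0.16 in the controls against 0.003, 0.02 and -0.09, which is apart but narrow. Of the others, 1438640_x_at and 1439435_x_at belong to that same _x_at class. Ldha, which turns pyruvate into lactate, was 0.25, 0.38 and -0.16 in the controls and 0.08, 0.03 and -0.34 with MMP3, a difference of -0.23 (SE 0.13, adjusted p = 0.263, limma). Bnip3, which marks mitochondria for removal, was -0.03, 0.05 and 0.54 against 0.03, -0.15 and 0.59, with a difference of -0.03 (SE 0.18, adjusted p = 0.893, limma). The sizes in this set thus ran from near 0 to -2.09 within 1 pathway.

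Over all 24 probe sets 23 had a negative difference in A, beside 73.2% of all probe sets, with a median of -0.36 against -0.0177 for the whole table. With array medians set to 0 these were 22 and 55.1%. The MMP3 dishes lay wholly below the controls for 17 of the 24, beside 43.5% of all probe sets, and above them for none, beside 10% of all. That share depended on scaling. With array medians set to 0 it was 14.1% of all probe sets and 13 of the 24 members, and with quantile normalization 14.5% and 14. The members were chosen with earlier results of these data known, so their counts may follow in part from that choice.

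**Figure D2:**
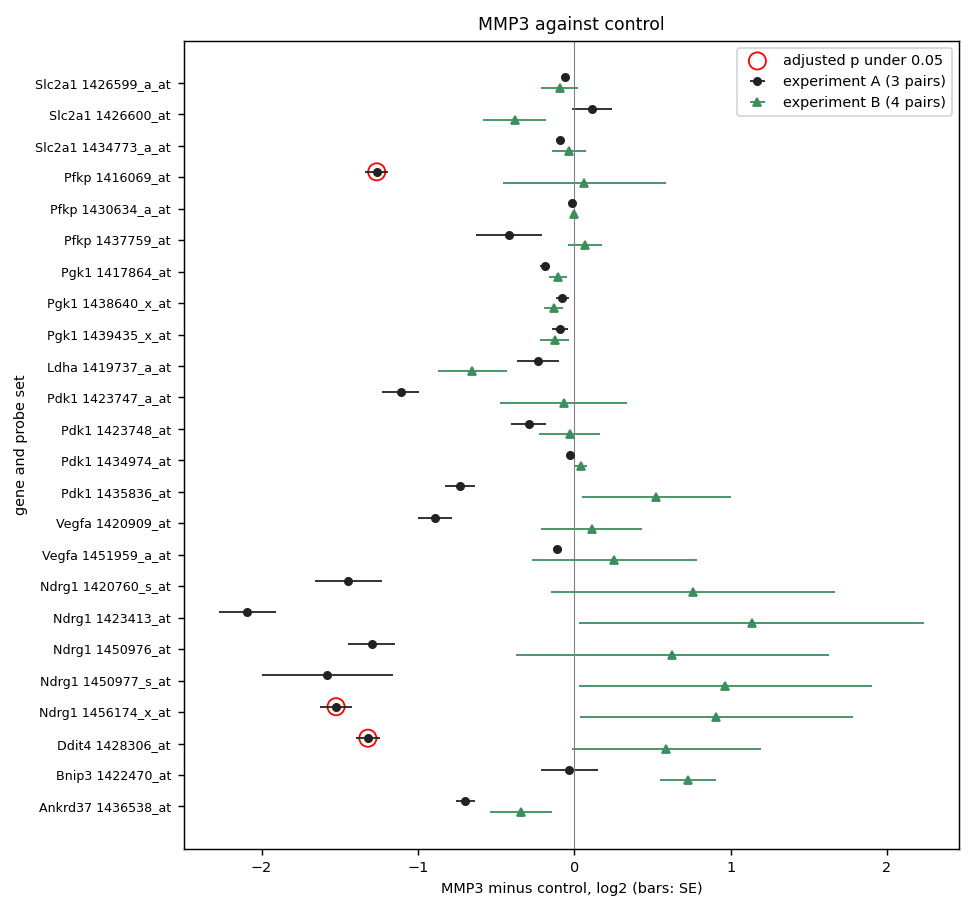
MMP3 minus control on the log2 scale for each probe set (points) with its standard error (bars), in experiment A (black circles) and B (green triangles). Red rings mark the 3 probe sets past the test, at -1.52, -1.32 and -1.26, all in A, and in B the Pfkp points lie near 0 with bars that cross it.

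In experiment B, as labelled, none of the 24 passed for MMP3. Neither did any of all 45037 (limma, 0% called), while 7.17% had an unadjusted p under 0.05, 2 of them members. The 2 members were Ldha and Bnip3, and these were also the only members whose agents did not overlap in B, beside 2.90% of all probe sets lower and 2.68% higher in that way. Ldha was 0.41, 0.03, 0.05 and -0.03 in the controls at 25K, 50K, 100K and 250K and -0.41, -0.23, -1.11 and -0.41 with MMP3. The difference was -0.65 (SE 0.22, adjusted p = 0.612, limma), and -0.47 without the MMP3 100K array. Bnip3 was -0.16, -0.32, -0.05 and -0.29 against 0.42, -0.03, 0.70 and 1.02, a difference of 0.73 (SE 0.18, adjusted p = 0.456, limma), with MMP3 higher in 4 of 4 pairs. A fit without the 4 arrays named above as against their labels, and with no product of agent and density, had 2 dishes of each agent. In it the difference was -0.41 for Ldha (adjusted p = 0.281) and 0.27 for Bnip3 (adjusted p = 0.734, limma). The arrays left out were singled out by their values.

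The genes that fell in A showed no such difference between the labels in B. Ndrg1 (1423413_at) was 0.28, -0.36, 0.91 and -0.83 in the controls and 1.72, -0.37, 3.55 and -0.37 with MMP3, so the difference had the opposite sign, 1.13 (SE 1.10, adjusted p = 1, limma). Its size came largely from 1 array, being 0.27 without MMP3 100K. Pfkp was 0.66, -0.92, 0.73 and -0.71 against 0.59, -0.57, 0.17 and -0.17, a difference of 0.06 (SE 0.52). Ddit4 was 0.06, -1.42, 0.71 and -0.85 against 0.84, -0.21, -0.27 and 0.50, a difference of 0.59 (SE 0.61). The dishes of each agent thus overlapped widely for all of them. Without those 4 arrays, and with no product of agent and density in the model, the differences in B had the sign seen in A, at -1.12 for Ndrg1, -1.20 for Pfkp and -0.61 for Ddit4, with adjusted p between 0.163 and 0.285 (limma). That fit has 4 dishes and 1 residual degree of freedom. The arrays left out were singled out by their values, so these signs follow in part from that choice. Both controls that stayed read -2.93 for Ifit1, and the MMP3 dishes that stayed read 4.53 and 5.15.

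Pdk1 (1423747_a_at) was 0.52, -0.46, 0.71 and -0.47 in the controls of B and 0.79, -0.47, 0.13 and -0.41 with MMP3. Vegfa (1420909_at) was 0.08, -0.33, 0.56 and -0.42 against 0.59, -0.08, 0.47 and -0.65. Both agents thus held high and low dishes. With 1451959_a_at Vegfa was 1.62 on the MMP3 100K array and 0.73 on control 25K, and below 0.12 on every other array of B. Slc2a1 1426600_at was 0.30, 0.27, 0.01 and 0.35 in the controls of B and -0.64, -0.05, 0.29 and -0.19 with MMP3, so it was lowest in the sparsest MMP3 dish. Pgk1 1417864_at was 0.16, -0.07, 0.12 and -0.003 against -0.02, -0.06, -0.06 and -0.07, with controls above MMP3 at 3 of 4 densities.

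Of the 21 probe sets that were lower in all 3 pairs of A, 2 were higher in all 4 pairs of B (Ndrg1 1456174_x_at and Pdk1 1435836_at), 2 were lower in all 4 (Ldha and Ankrd37) and 17 were mixed. Of all probe sets 60.6% were lower in all 3 pairs of A, and of these 7.69% were higher and 3.93% lower in all 4 pairs of B, so the members' counts of 2 and 2 are small and read as no result. Each pair of B also held an array named above as against its label. Whether MMP3 acted differently in A and B was tested on the 12 dishes at 50K to 250K. No probe set passed (limma, 0% called), members included, while 7.71% had an unadjusted p under 0.05, of which 4 were members. It was largest for Ndrg1 1423413_at, at 3.12 in B minus A (SE 1.52, adjusted p = 0.652, limma). For Ddit4 it was 1.85 (SE 0.72) and for Pfkp 1416069_at 1.37 (SE 0.57), both with adjusted p = 0.642 (limma). Without control 100K of B, where 0.517% of all probe sets passed, these became 2.49 (adjusted p = 0.0499) and 1.90 (adjusted p = 0.0356, limma) and passed. The controls of B that stayed in that fit were 50K and 250K, both named above as against their labels. Over the 12 fits that lacked a single dish, 0 to 2 members passed, and the 2 came from this fit.

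With A and B joined on 14 arrays and experiment as a block, none of the 24 passed for MMP3, while 0.619% of all probe sets did (limma), 0.3% higher and 0.32% lower. At an unadjusted p under 0.05 there were 4 members and 10.1% of all. The smallest adjusted p among members was 0.124, for Pgk1 1417864_at (-0.14, SE 0.04). Ankrd37 differed by -0.49 (SE 0.15, adjusted p = 0.205, limma), Ldha by -0.47 (SE 0.14, adjusted p = 0.202, limma) and Bnip3 by 0.40 (SE 0.18, adjusted p = 0.516, limma). Without control 50K of B, where 2.12% of all passed, Pgk1 1417864_at at -0.17 (adjusted p = 0.0166) and Ankrd37 at -0.58 (adjusted p = 0.0329, limma) passed. Without the 4 arrays named above as against their labels 19 members of 9 genes passed, all lower, beside 55.7% of all probe sets. Ddit4 was then at -1.14 (adjusted p = 0.0133), Pfkp 1416069_at at -1.26 (adjusted p = 5.57e-04) and Ndrg1 1423413_at at -1.83 (adjusted p = 0.00439, limma). Those arrays were singled out by their values, so this count follows in part from that choice.

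Plating density was the second comparison. In experiment A no member passed for density. No probe set of the whole table passed either (limma, 0% called), while 15.7% had an unadjusted p under 0.05. Of the members 9 of 24 were under that level. Ddit4 had the steepest slope, 0.69 per doubling of plated cells (SE 0.04, adjusted p = 0.136, limma). From 50K to 250K it was 1.55 higher among the controls and 1.66 higher among the MMP3 dishes.

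Ndrg1 (1423413_at) followed with a slope of 0.54 (SE 0.10, adjusted p = 0.230, limma), and was 1.78 higher at 250K than at 50K in the controls and 0.70 higher with MMP3. Bnip3 had a slope of 0.26 (SE 0.10, adjusted p = 0.383, limma), and its 2 values at 250K in A, 0.54 and 0.59, lay above the rest of that experiment. Ankrd37 went the other way, with a slope of -0.28 (SE 0.03, adjusted p = 0.191, limma). That slope averages unlike agents, since from 50K to 250K Ankrd37 changed by -1.31 in the controls and by -0.01 with MMP3. With no product of agent and density in the model its SE was 0.15 (adjusted p = 0.497, limma). Slopes were also negative for Slc2a1 1426599_a_at at -0.09 (SE 0.01, adjusted p = 0.170, limma) and Ldha at -0.19 (SE 0.07, adjusted p = 0.383, limma). Whether these slopes differ from gene to gene was not tested.

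In experiment B no member passed for density and no other probe set did (limma, 0% called), while 3.12% had an unadjusted p under 0.05, 1 of them a member. Slopes of the genes that had been steepest in A were -0.07 for Ddit4 (SE 0.25) and -0.25 for Ndrg1 1423413_at (SE 0.45). Bnip3 kept a positive slope of 0.11 (SE 0.07) and Ankrd37 a negative one of -0.15 (SE 0.08). With both experiments together no probe set passed (0% called with limma, 7.2% at an unadjusted p under 0.05), and Ankrd37 alone among members was under that unadjusted level, at -0.19 per doubling (SE 0.07, adjusted p = 0.508, limma). Without the 4 arrays against their labels Ddit4 passed, at 0.55 (adjusted p = 0.0496, limma), beside 2.24% of all. A difference in slope between the agents was called for none (0% called with limma, 1.83% at an unadjusted p under 0.05), and again Ankrd37 was the 1 member under that level, at 0.30 (SE 0.13, adjusted p = 0.997, limma).

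**Figure D3:**
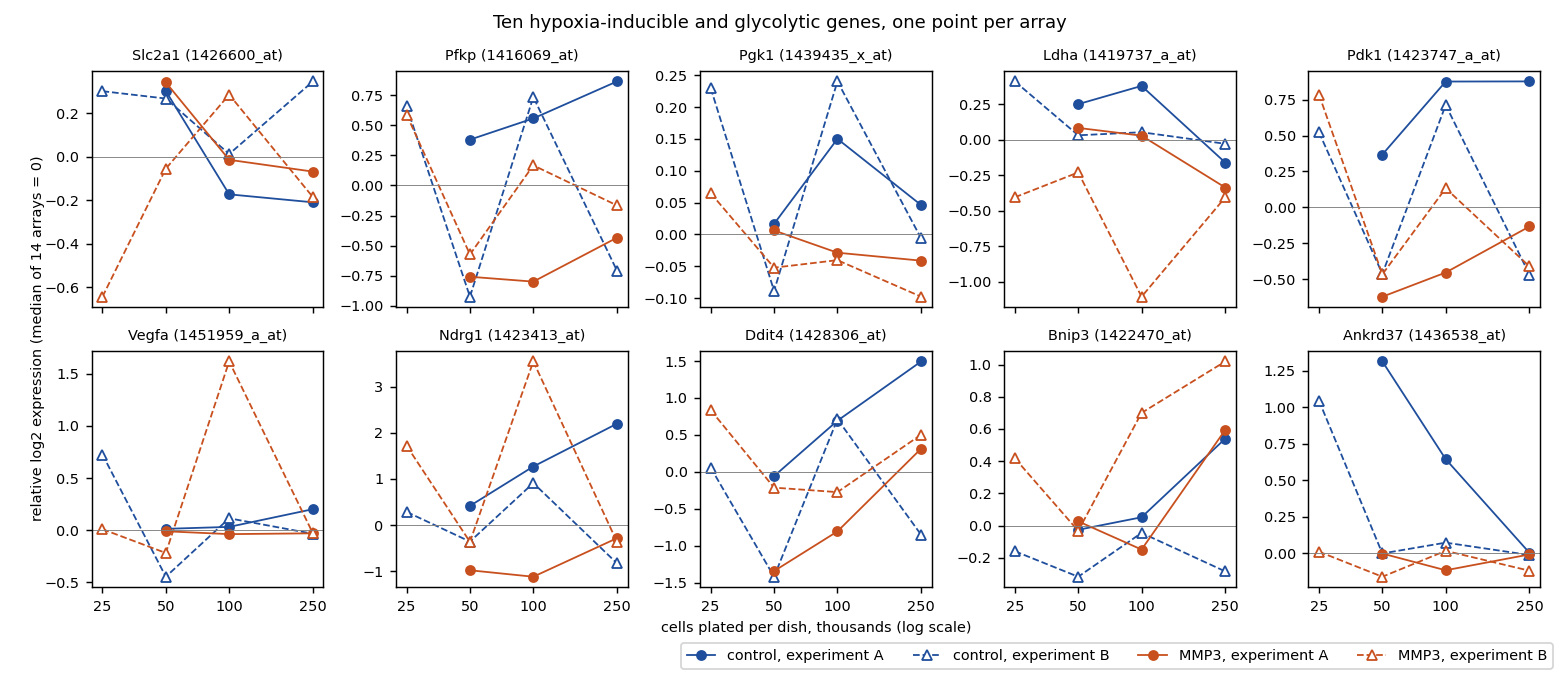
Relative log2 expression of each gene's most variable probe set (vertical axes, with a range of their own) against cells plated per dish on a log scale, 1 point per array. Ddit4 is higher at each higher density under both agents in experiment A (filled circles), Ankrd37 is high only in 3 control dishes, and the dashed lines of experiment B rise and fall between neighbouring densities.

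**Figure D4:**
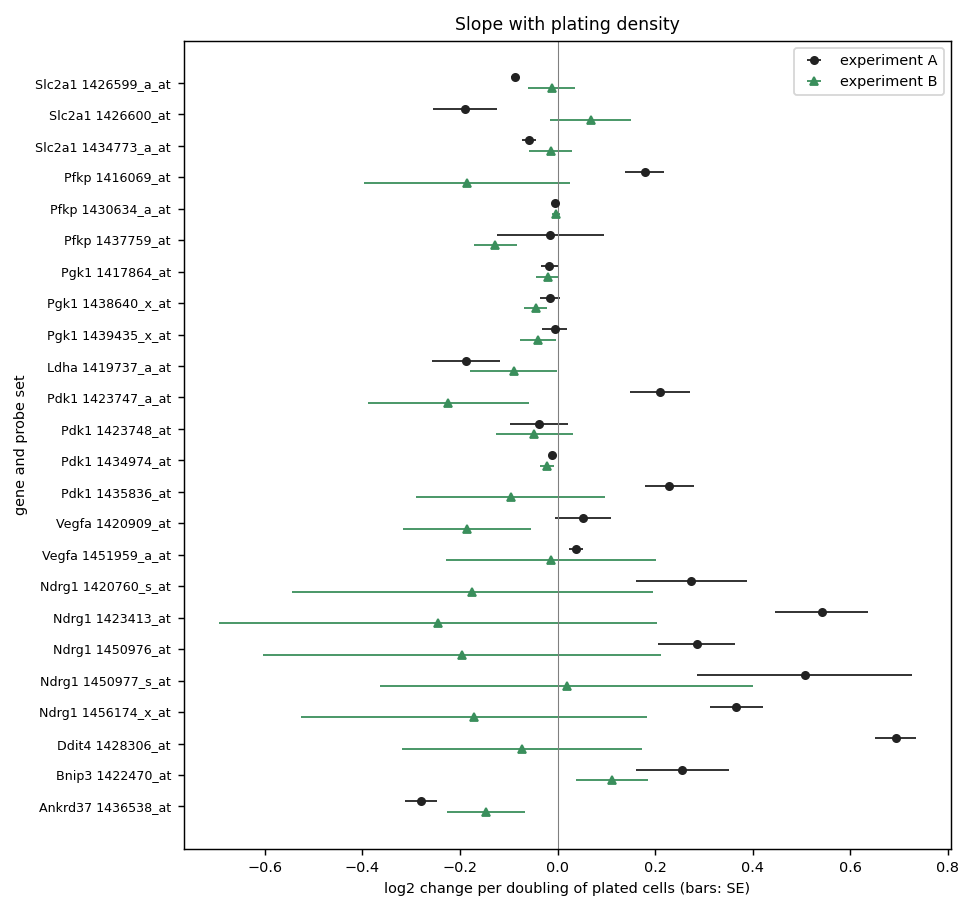
Log2 change per doubling of plated cells for each probe set (points) with its standard error (bars), in experiment A (black circles) and B (green triangles). Ddit4 has the highest slope in A, 0.69, and a slope of -0.07 in B.

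The mean over the 10 genes, each by its most variable probe set, was above 0 on 7 arrays and below 0 on 7. In A it was 0.30, 0.45 and 0.59 in the controls and -0.33, -0.35 and -0.04 with MMP3, in the order of density. In B it was 0.41, -0.37, 0.35 and -0.29 in the controls and 0.34, -0.24, 0.51 and -0.03 with MMP3. The 7 arrays above 0 were those with Ifit1 below 0, and the 7 below 0 those with Ifit1 above 0. The mean is not scaled, so genes with wide ranges weigh most. On MMP3 100K of B it rested largely on Ndrg1 at 3.55 and Vegfa 1451959_a_at at 1.62. Ldha, Ddit4 and Pgk1 were below 0 on that array, at -1.11, -0.27 and -0.04. The MMP3 dishes at the highest density lay close to 0, at -0.04 in A and -0.03 in B. Each probe set is centred on its median, which by itself puts 7 arrays on either side of 0 for a single probe set such as Ifit1. For a mean of 10 such probe sets it does not fix that split. How many of all probe sets split the arrays as Ifit1 does was not counted. Whether the match is particular to these genes was therefore not tested.

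Among 22185 other named probe sets that varied, those of 8 genes followed this mean most closely over the 14 arrays. They were Gja1, which encodes the gap junction protein connexin 43 (r = 0.969), Samd5 (0.966), the transcription factor gene Maf (0.964), Yif1b (0.960), Spink5 (0.958), Acat1, a mitochondrial enzyme of ketone and isoleucine metabolism (0.957), Abi2 (0.950) and Cisd1 (0.949). The coefficients describe 14 arrays that fall into high and low sets, and share the same libraries, so they carry no p.

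Other genes of the pathway were taken from lists. Of the oxygen sensors and HIF subunits, 1 of 27 probe sets passed for MMP3 in A, beside the 1.71% of all probe sets called lower, a fall in Hif1a 1416035_at, the oxygen-regulated subunit (-0.46, SE 0.04, adjusted p = 0.0490, limma). Its other 3 probe sets differed by -0.44, -1.47 and -0.01, with adjusted p between 0.124 and 0.274 (limma). Of other HIF targets, 4 of 43 probe sets rose, beside 2.41% of all, and none fell. They were both probe sets of Plod2, a collagen lysyl hydroxylase (1.51 and 1.27), P4ha2, a collagen prolyl hydroxylase (0.72), and Pfkfb3 1416432_at, which makes an activator of phosphofructokinase (0.46), with adjusted p between 0.0221 and 0.0427 (limma). These few calls are values of the named genes and describe no trend of the list.

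Of other glycolytic enzymes and lactate carriers, 1 of 26 probe sets fell in A, beside 1.71% of all called lower, and none rose. It was Aldoa 1447734_x_at, for aldolase A, of the same _x_at class as above (-0.34, SE 0.02, adjusted p = 0.0379, limma). The other Aldoa probe sets were not called. None of 13 probe sets for the entry of pyruvate into mitochondria passed. The list medians in A were -0.0158 for sensors, -0.0136 for HIF targets, -0.15 for glycolysis and -0.0388 for pyruvate entry. With array medians set to 0 Plod2 1416686_at (adjusted p = 0.0282) and Aldoa (adjusted p = 0.0455) still passed, while Hif1a, P4ha2, Pfkfb3 and the other Plod2 probe set were between 0.0553 and 0.0702. With quantile normalization none of the 6 passed (0.0547 to 0.0920, limma). In B none of these lists had a called member for MMP3, and there Plod2 differed by -1.01 and -0.86 (adjusted p = 1, limma). Over all arrays Slc16a1 1415802_at, for a lactate carrier, fell by 0.57 on the log2 scale (SE 0.10, adjusted p = 0.0464, limma), beside 0.32% of all called lower. The gene's other probe set, 1446274_at, was not called. None of the lists had a called member for density in A.

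Markers of other cell types were summed in the same dishes. The summed relative value of 10 macrophage probe sets ran from 0.18 to 1.78 among controls and from -0.164 to -0.0267 among MMP3 dishes. For 8 adipocyte probe sets it was 0.537 to 1.58 and -0.986 to -0.523, for 6 endothelial ones 0.00406 to 0.117 and -0.0588 to -0.00538, and for 14 fibroblast ones -0.253 to 2.78 and -1.09 to 0.104, which overlap. The median differences of these lists in A, -0.0173 for macrophage, -0.0255 for adipocyte, -0.0184 for endothelial and -0.0186 for fibroblast probe sets, lay near the -0.0177 of all probe sets. In B the macrophage sum was -0.141 to 0.608 in controls and 0.433 to 4.65 with MMP3, and the fibroblast sum -1.34 to 0.717 and -0.194 to 3.72. In B the epithelial sum ran from -0.265 to 0.599 and from -6.97 to 2.44. In A the 11 epithelial probe sets summed to -0.732 to 0.114 and 0.472 to 1.38. No macrophage, adipocyte, endothelial or fibroblast probe set passed in A. Of the epithelial ones Epcam 1416579_a_at (1.18) and Cdh1 (0.89) rose, beside 2.41% of all. Krt5 fell by 1.03 on the log2 scale, beside 1.71% of all. The other 8 were not called, and the list median was -0.0115. The called ones still passed with array medians set to 0 (adjusted p from 0.0219 to 0.0425, limma). With quantile normalization none of them did (0.0587 to 0.0732, limma). Whether any of this bears on the 10 genes was not tested.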

How the data were processed

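RNA of 14 dishes was measured on Affymetrix Mouse 430 2.0 arrays from 200 ng of total RNA, per the labels' protocols. The authors deposited log2 values. Per the submitters' processing notes RMA was used, without a version. What else was done is not stated there. The log base and the centring of each probe set on its median over the arrays were read from the values. No scanner files were used, so signal over background is unknown, and the number of arrays limits the precision.

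Genes were assigned from GEO's platform annotation: 34945 had 1 symbol, 932 several and 9160 none. Current symbols were looked up by Entrez identifier for 34741. Agent, density and experiment came from the sample titles.

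Models were fitted with limma 3.58.1 under R 4.3.3 (lmFit, eBayes, Benjamini-Hochberg over all 45037 probe sets that are not controls, threshold 0.05, no filter), and were checked on simulated data. The model had agent, centred log2 density and their product, fitted to A (2 residual degrees of freedom), to B (4) and to all arrays with experiment as a block (9). The difference between experiments had agent, experiment, their product and density. Letters A and B denote experiments in the titles. Deviations from group means correlated at 0.052 on average between the arrays of A (-0.65 to 0.64). Alternatives were a filter on SD (40th percentile, 0.049), a robust prior, other scalings, other models, averaging the probe sets of a gene and arrays left out.

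All probe sets of the 10 genes are named. Of the pathway lists, those past the threshold in A were named, at most 4 per list. Likeness was Pearson's r with the mean of each gene's most variable probe set, among probe sets past the SD filter, provisional symbols left out. The members and lists were chosen with earlier results of these data known. Listed genes with no probe set of their own are not analysed here.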

Additional observations from a re-analysis of the deposited data

Results flagged for a closer look

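Within the dishes of an agent, of experiment B alone or of both experiments, 96 sets of values were checked for a dish that stood apart by Dixon's criterion. Chance flags about 1 in 20 such sets, and 9 were flagged, 5 of them on the array labelled MMP3 100K of B. On that array Vegfa 1451959_a_at read 1.62, next to 0.0098, in both the 4 MMP3 dishes of B and all 7. Slc2a1 1426599_a_at was highest there at 0.29 (next 0.0115) and Slc2a1 1434773_a_at at 0.33 (next 0.0214), while Ldha was lowest at -1.11 (next -0.41). Pfkp 1437759_at was highest on MMP3 25K of B at 0.24 (next 0.016), and Pdk1 1423748_at lowest on MMP3 50K of B at -0.34 (next -0.0359). Among controls, Bnip3 was highest on control 250K of A at 0.54 (next 0.0516), and Ankrd37 on control 25K of B at 1.05 (next 0.0721). The dishes of a set differ in density.

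MMP3 minus control had opposite signs in every pair of the 2 experiments for Ndrg1 1456174_x_at, at -1.52 on average in A and 0.91 in B, 2.43 apart, and for Pdk1 1435836_at, at -0.73 and 0.52, 1.26 apart. In the test of that difference on the 12 arrays at 50K to 250K neither passed (adjusted p = 0.652 and 0.642, limma). Each pair of B held an array named above as against its label. For Ndrg1 1456174_x_at MMP3 minus control in B was 1.99 at 100K and 0.10 to 1.05 at the other densities.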

How the results depend on the processing

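The count of member probe sets lower with MMP3 in experiment A was 3 of 24. It was 10 with the SD filter, where 19.9% of the 27022 probe sets kept were called, and 5 without the product of agent and density. It was 0 with a robust prior, with array medians set to 0, with quantile normalization and with any 1 array of A left out (0 to 0), where no probe set of the table passed. With the filter the calls were Pfkp, Ddit4, Ankrd37, Vegfa 1420909_at, 2 of Pdk1 and 4 of Ndrg1. For MMP3 over both experiments the count was 0 to 2 with an array left out, for density over both 0, and for the difference between experiments 0 to 2. Leaving out the 4 arrays of B named above as against their labels gave 19 members lower over both experiments, where 55.7% of all probe sets passed, and 1 for density (Ddit4 at 0.55, adjusted p = 0.0496, limma). Those arrays were singled out by their values, which in part sets these counts. Without the replicate block for experiment, and with each matched pair as the replicate block, 0 members passed for MMP3, as with the block. Added after seeing the data, experiment B without those arrays and with no product, and the difference between experiments without 3 of them also gave 0 members. In experiment A the differences of Pfkp, Ddit4 and Ndrg1, each by its most variable probe set or their mean, stayed negative under each setting run. A centred table gives no signal over background, so what depth limits could not be judged.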
